A study of Mus musculus with 4 samples.

Results

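The glucocorticoid receptor gene Nr3c1 and 9 genes whose transcription glucocorticoids are known to induce were followed through an RNA immunoprecipitation of the nuclear matrix protein SAFB (scaffold attachment factor B). The 9 are Tsc22d3, Fkbp5, Per1, Sgk1, Mt1, Mt2, Dusp1, Lcn2 and Errfi1. They were chosen by symbol, because the cells were grown with the synthetic glucocorticoid dexamethasone, and not by a measured value. Each symbol matched 1 gene, so the 10 genes were 10 of 52189 in the deposited table, and all 10 were above 1 TPM in every library.

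The study asked which nuclear RNAs of AML12 cells associate with SAFB. AML12 is a mouse hepatocyte line, established from a mouse transgenic for a human growth factor of the epidermal growth factor (EGF) family. Every culture received 10% fetal bovine serum, an ITS supplement and dexamethasone at 0.1 µM. After exposure to ultraviolet light, which links RNA to bound protein, nuclei were isolated, lysed and sonicated, and the lysates were divided between an antibody against SAFB (2 libraries) and control IgG (2 libraries). No arm without dexamethasone was analysed here, so the values are levels and recoveries in treated cells and say nothing of induction. Whether the 2 replicates of a group were separate cultures is not labelled, and the p-values measure only the spread between libraries, which may be technical.

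Without hormone, the glucocorticoid receptor is held in the cytoplasm by a chaperone complex of HSP90 and its cochaperones. With hormone bound it enters the nucleus and binds glucocorticoid response elements, palindromic DNA sequences near its target genes. Products of these genes feed back on the receptor and on other pathways: FKBP5 lowers the affinity of the receptor for hormone, GILZ (from Tsc22d3) restrains NF-kB and AP-1, and DUSP1 switches off MAP kinases. SAFB binds RNA through a recognition motif and arginine-rich regions and is known to favour purine-rich sequence.

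Values are TPM, the share of each transcript in a library after division by its length, scaled to 1000000. TPM can be compared between genes, but read depth is unknown, and a value is a share of the precipitate and not an amount. The input was not analysed here, so recovery is set against IgG alone. Nuclei were pooled, and fewer cells with a transcript cannot be told apart from less of it per cell. Between the IgG libraries the median absolute log2 difference of a gene was 0.37, and between the SAFB libraries 0.17. Safb itself stood at 170 and 161 TPM in the IgG libraries and at 988 and 880 TPM in the SAFB libraries.

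Hepatocyte markers were present at summed levels of 7023 to 7951 TPM per library, led by Trf (transferrin) and Ttr (transthyretin). This sum includes the keratin genes Krt8 (1207 to 1389 TPM) and Krt18 (846 to 930 TPM). Fgb, of the same list, stood at 3.55 to 7.59 TPM and Tat at 1.26 to 3.78 TPM. The liver transcription factor gene Hnf4a stood between 186 and 202 TPM. Ahsg and Cps1, of mature liver, did not reach 2 TPM in any library. Biliary markers summed to 2618 to 3095 TPM, led by Spp1 (osteopontin), and the macrophage list to 124 to 147 TPM, most of it from Cd14, with Adgre1, Clec4f and Lyz2 listed at 0. Cd68, of the same list, stood at 12.7 and 6.31 TPM with IgG and 31.5 and 21.3 TPM with SAFB, and did not pass (limma, Benjamini-Hochberg adjusted p = 0.0562). Endothelial markers summed to at most 0.771 TPM and stellate and fibroblast markers to at most 1.83 TPM. Of 16 hepatocyte markers tested 3 were higher and 2 lower in the SAFB RIP, and of 5 biliary markers 1 was higher (Cftr) and 2 were lower (Krt19 and Sox9). The hepatocyte shares were 18.8% higher and 12.5% lower, against 29.8% and 8.30% of all genes tested. Of the few biliary markers, too, a smaller share was higher and a larger share lower than of all genes. With each library centred on its median, 2 hepatocyte markers were higher and 7 lower, where 16.4% and 17.6% of all genes were. With a trend on transcript GC content removed, 5 hepatocyte markers were higher and 1 was lower, where 27.9% and 4.61% of all genes were. The part of these cell types in the results was not tested.

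Nr3c1 and Errfi1 were higher in the SAFB RIP by 1.75 and 1.03 on the log2 scale, Fkbp5 and Tsc22d3 by 0.59 and 0.43, and Sgk1, Per1 and Dusp1 were lower than in the IgG RIP. In limma on log2(TPM + 1), with p-values adjusted by the Benjamini-Hochberg method over all 16647 genes tested and a threshold of 0.05, 4 of the 10 genes were called higher, 3 lower, and 3 (Lcn2, Mt1 and Mt2) did not pass. Of all genes tested, 38.1% were called, 29.8% as higher and 8.30% as lower. The median log2 fold change was -0.23 over the 10 genes and 0.46 over all genes tested. The groups also differed in composition: the 10 most abundant genes held 26.8 to 27.5% of TPM in the IgG libraries and 9.59 to 9.73% in the SAFB libraries, and 16031 and 17278 genes against 22389 and 21006 were above 0. TPM is a share, and the part of this difference in the results was not tested. Values measured from the median shift, with each library centred on its median, are set beside the deposited scale. On the centred scale 2 of the 10 genes, Nr3c1 and Errfi1, were higher, and 5, Sgk1, Per1, Dusp1, Mt1 and Lcn2, were lower, where 34.1% of all genes were called, 16.4% higher and 17.6% lower.

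**Figure D1:**
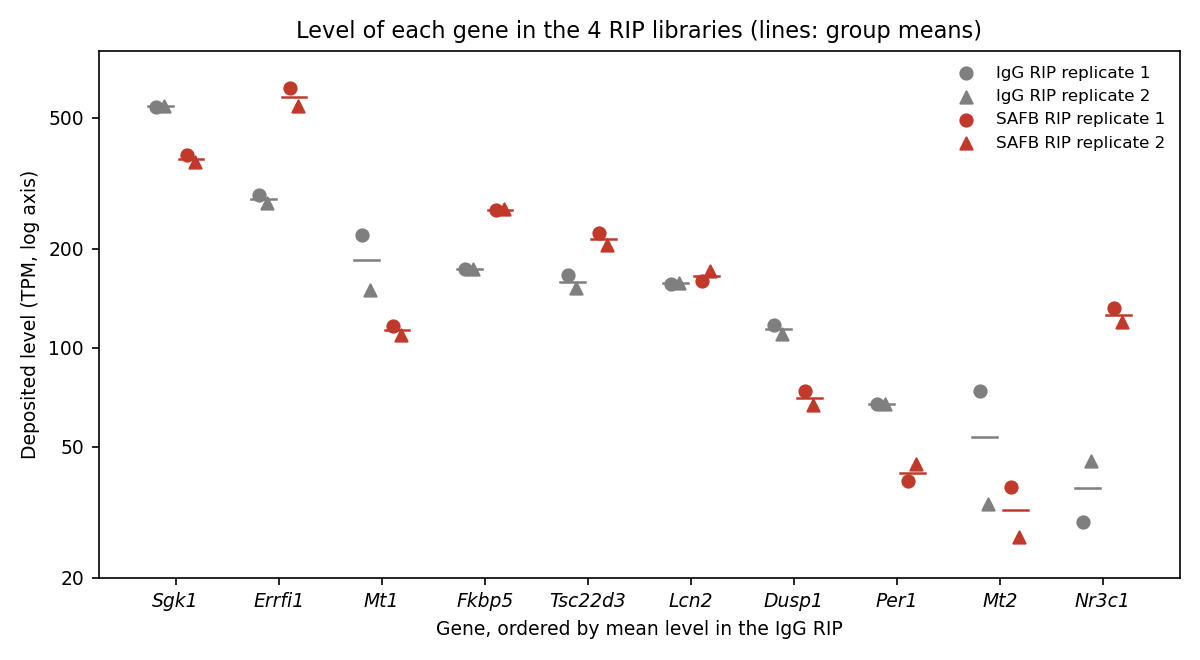
Deposited TPM (log axis) of the 10 genes in the 2 IgG and 2 SAFB libraries, with a line at each group mean. Only for Mt2 do the groups overlap, and Nr3c1, lowest of the 10 in the IgG RIP at 37.5 TPM, stands at 126 TPM in the SAFB RIP.

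Nr3c1 encodes the glucocorticoid receptor, a nuclear receptor that acts as a ligand-controlled transcription factor (chromosome 18, 39410545 to 39519421, minus strand, mm10). It stood at 29.6 and 45.4 TPM in the IgG libraries and at 132 and 119.5 TPM in the SAFB libraries. Every SAFB value was above every IgG value, and the IgG libraries differed from each other more than the SAFB libraries did. The mean was 37.5 ± 11.2 TPM in the IgG RIP and 126 ± 8.83 TPM in the SAFB RIP (SD, n = 2), a ratio of 3.36. The log2 fold change was 1.75 ± 0.23 (SE; limma, Benjamini-Hochberg adjusted p = 0.0101), and 87.4% of the genes tested had a smaller one. Relative to the shift of all genes it stood at 1.29.

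Nr3c1 passed the test under all 15 alternative settings, with log2 fold changes from 1.29 to 2.05. From the IgG RIP to the SAFB RIP it moved from the lowest level among the 10 genes to the sixth highest. Among genes tested, leaving out predicted Gm and Rik symbols, the 3 nearest to it over the 4 log2 values were Plekha5 (Euclidean distance 0.13), Ttc3 (0.16) and Ylpm1 (0.19). Plekha5, the closest, stood at 30.0 and 43.5 TPM with IgG and 125 and 126 TPM with SAFB.

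Fkbp5 encodes an immunophilin cochaperone that competes with FKBP4 in the receptor complex (chromosome 17, 28399094 to 28517527, minus strand). It stood at 174 and 174 TPM in the IgG libraries and at 263 and 264 TPM in the SAFB libraries, so replicates nearly coincided and the groups were apart. Fkbp5 passed under 9 of the 15 alternative settings. The log2 fold change was 0.59 ± 0.09 (limma, Benjamini-Hochberg adjusted p = 0.0122), a ratio of means of 1.51. That is close to the shift of all genes: after median centring Fkbp5 stood at 0.13 and did not pass. It did not pass either without SAFB RIP replicate 1 (0.60) or without SAFB RIP replicate 2 (0.59).

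Tsc22d3 encodes GILZ, a leucine zipper protein that mediates anti-inflammatory effects of glucocorticoids (chromosome X, 140539528 to 140600659, minus strand). It stood at 167 and 152 TPM with IgG and at 223 and 206 TPM with SAFB, with no overlap. Its log2 fold change was 0.43 ± 0.11 (limma, Benjamini-Hochberg adjusted p = 0.0373), a ratio of means of 1.35. Tsc22d3 passed under only 6 of the 15 alternative settings. It did not pass after median centring, at -0.030, or with a trend on the GC content of the longest transcript removed, at 0.23. It also failed the threshold without SAFB RIP replicate 1 (0.37) and without SAFB RIP replicate 2 (0.49).

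Errfi1 encodes MIG6, a feedback inhibitor that binds the EGF receptor kinase (chromosome 4, 150853919 to 150868892, plus strand). Its level was 291 and 276 TPM in the IgG libraries and 616 and 543 TPM in the SAFB libraries, which made it the most abundant of the 10 in the SAFB RIP. The groups were well apart, and the ratio of means was 2.04. Errfi1 was higher by 1.03 ± 0.11 on the log2 scale (limma, Benjamini-Hochberg adjusted p = 0.00689). The gene passed under all 15 alternative settings, with values from 0.57 to 1.18, the lowest of them after median centring.

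Sgk1 encodes a serum- and glucocorticoid-regulated kinase that acts on ion channels and on the ubiquitin ligase NEDD4L (chromosome 10, 21882184 to 21999903, plus strand). With IgG it was the most abundant of the 10, at 539 and 545 TPM, and with SAFB it stood at 385 and 367 TPM. Every SAFB value lay below every IgG value. The log2 fold change was -0.53 ± 0.09 (limma, Benjamini-Hochberg adjusted p = 0.0164), a ratio of means of 0.693, and -0.99 after median centring. Without SAFB RIP replicate 1 (-0.56) and without SAFB RIP replicate 2 (-0.49) it did not pass.

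Per1, a repressor of the circadian clock that glucocorticoids induce directly, lies on chromosome 11 (69095217 to 69109960, plus strand). It stood at 67.5 and 67.3 TPM with IgG and at 39.3 and 44.3 TPM with SAFB, again without overlap. Its log2 fold change was -0.68 ± 0.13 (limma, Benjamini-Hochberg adjusted p = 0.0221). With the GC trend removed it turned to 0.13 and did not pass. Nor did it pass without SAFB RIP replicate 1 (-0.60) or without SAFB RIP replicate 2 (-0.76).

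Dusp1, the gene of a nuclear phosphatase that inactivates p38, JNK and ERK, lies on chromosome 17 (26505590 to 26562128, minus strand). Its level was 117 and 110.4 TPM with IgG and 73.8 and 67.2 TPM with SAFB. These did not overlap, and the log2 fold change was -0.68 ± 0.11 (limma, Benjamini-Hochberg adjusted p = 0.0155). It was -0.32 and did not pass with the GC trend removed, and it did not pass without SAFB RIP replicate 1 (-0.75) or without SAFB RIP replicate 2 (-0.62). An exon of Dusp1 overlaps an exon of Ergic1 on the opposite strand by 11 bases.

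Mt1 and Mt2 encode metallothioneins, small cysteine-rich proteins that bind zinc and copper, and both are induced by metals as well as by glucocorticoids. They are neighbours on the plus strand of chromosome 8 (Mt2 at 94172664 to 94173568, Mt1 at 94179082 to 94180327). Their coding sequences in GENCODE M21 are shown without the stop codon, to show how far they differ. Both were 183 bases long, and they were identical at 145 positions (79.2%). Capitals mark the 38 positions that differ:
Mt1: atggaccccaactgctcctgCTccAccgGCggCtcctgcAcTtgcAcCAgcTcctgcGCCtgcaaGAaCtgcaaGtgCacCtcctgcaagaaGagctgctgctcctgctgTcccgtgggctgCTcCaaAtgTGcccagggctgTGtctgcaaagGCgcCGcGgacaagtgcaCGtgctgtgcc
Mt2: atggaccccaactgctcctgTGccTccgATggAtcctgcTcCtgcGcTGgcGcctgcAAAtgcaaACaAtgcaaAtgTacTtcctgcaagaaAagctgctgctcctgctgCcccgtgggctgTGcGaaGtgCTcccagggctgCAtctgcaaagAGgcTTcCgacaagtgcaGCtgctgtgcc

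The longest stretch they share without a difference was 20 bases. Whether reads were exchanged between the genes in counting was not tested. Mt2 exons also overlap Gm45774 on the opposite strand by 432 bases, and that gene reached at most 2.52 TPM. Strand handling is not given, and the effect of this overlap on the Mt2 values was not tested.

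Mt1 stood at 220.3 and 149.6 TPM in the IgG libraries and at 117 and 109.5 TPM in the SAFB libraries. All SAFB values were lower, but the IgG libraries were far apart, and the log2 fold change of -0.68 ± 0.21 did not pass (limma, Benjamini-Hochberg adjusted p = 0.0630). It passed as lower with median centring (-1.14) and when either IgG library was left out: the value was -0.40 without IgG RIP replicate 1, and leaving out IgG RIP replicate 2 gave -0.96. Mt2 stood at 73.7 and 33.5 TPM with IgG and at 37.7 and 26.5 TPM with SAFB, the only overlap of groups among the 10 genes. Its log2 fold change was -0.64 ± 0.43 and did not pass (limma, Benjamini-Hochberg adjusted p = 0.295). Leaving out IgG RIP replicate 1 gave -0.081, and leaving out IgG RIP replicate 2 gave -1.19, which passed. Mt1 was 2.99 and 4.46 times as abundant as Mt2 in the IgG libraries and 3.10 and 4.13 times in the SAFB libraries. The SAFB ratios thus lay within the range of the IgG ratios, and in both groups the ratio was higher in replicate 2. For both genes each SAFB value was below the IgG value of the same number. Whether equal numbers share a lysate is not labelled.

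Lcn2 encodes lipocalin 2, a secreted iron-siderophore carrier of the acute phase (chromosome 2, 32384633 to 32388252, minus strand). It was the flattest of the 10, at 157 and 157 TPM with IgG and 159 and 172 TPM with SAFB. Its log2 fold change of 0.075 ± 0.097 did not pass (limma, Benjamini-Hochberg adjusted p = 0.578). Its direction depended on scale: it was -0.38 and passed as lower after median centring, and 0.50 and passed as higher with the GC trend removed.

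**Figure D2:**
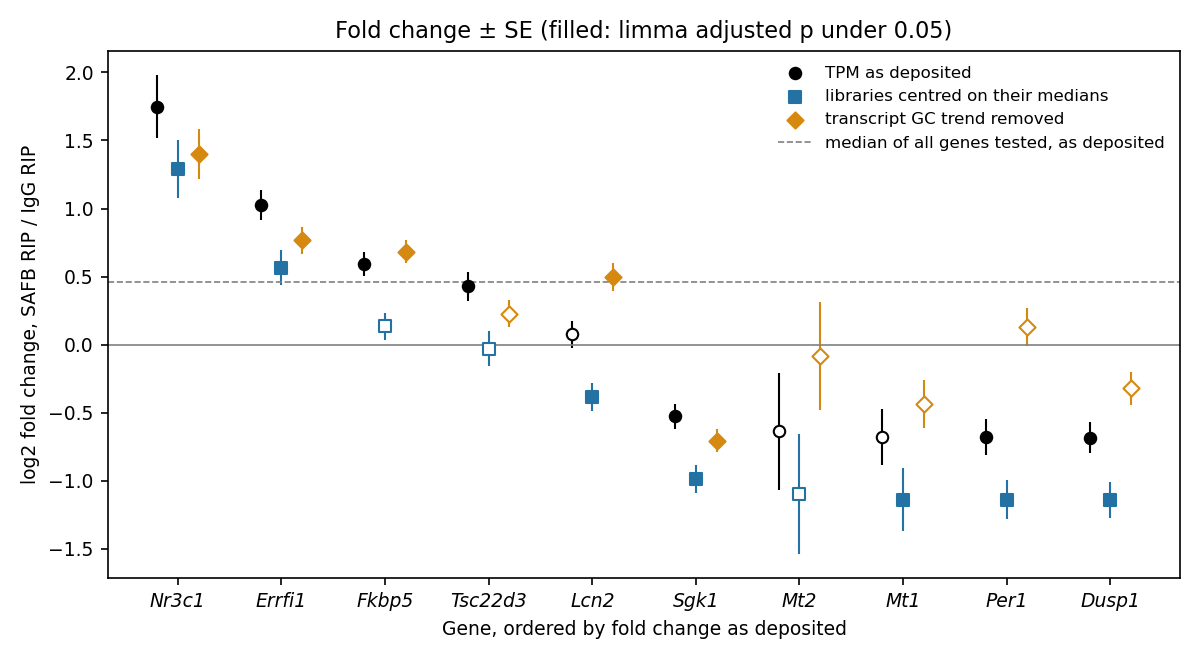
Log2 fold change of SAFB RIP over IgG RIP with its standard error for the 10 genes, as deposited, after median centring and with a transcript GC trend removed. Filled symbols passed at an adjusted p of 0.05. Nr3c1 and Errfi1 are filled and above 0 on all 3 scales, and Sgk1 is filled and below 0 on all 3. Tsc22d3, Per1 and Lcn2 change sign between scales.

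For 5 of the 10 genes the lowest SAFB value exceeded the highest IgG value, and for 4 the reverse held. Of all genes tested, 52.3% and 21.4% were separated in these directions. The IgG means spanned 14.5-fold, from Sgk1 at 542 TPM to Nr3c1 at 37.5 TPM, and the SAFB means 18.1-fold, from Errfi1 at 579 TPM to Mt2 at 32.1 TPM. In the SAFB order no neighbours overlapped in their ranges over 2 libraries. In the IgG order Mt1 and Fkbp5, Tsc22d3 and Lcn2, Per1 and Mt2, and Mt2 and Nr3c1 overlapped. In fold change, Sgk1, Mt2, Mt1, Per1 and Dusp1 overlapped each with the next when all 4 pairings of a SAFB with an IgG library were considered, while Nr3c1, Errfi1, Fkbp5, Tsc22d3 and Lcn2 were each apart from the next. Together the 10 genes made up 0.184% and 0.171% of the IgG libraries and 0.205% and 0.192% of the SAFB libraries.

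Base composition moved with the fold change. The longest annotated transcript of Nr3c1 had 42.2% GC, the lowest of the 10, and that of Per1 59.4%, the highest. Errfi1 (47.5%) and Tsc22d3 (48.3%) lay on the low side with Sgk1 (48.6%), the only gene below the median of all genes tested, 49.0%, that was lower in the SAFB RIP. Fkbp5 (51.6%), Mt1 (52.9%), Dusp1 (54.0%), Lcn2 (54.4%) and Mt2 (55.6%) lay above it. Across the 10 genes Pearson's r of GC content with log2 fold change was -0.80 and Spearman's rho -0.78, and across 16611 genes tested with a transcript in the annotation they were -0.31 and -0.36. These are descriptions over genes that share the same 4 libraries.

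Among all genes tested with 40 to 45% GC the median log2 fold change was 0.85, and among those with 55 to 60% it was -0.23. With the trend on GC removed from each library, Nr3c1 (1.40), Errfi1 (0.77), Fkbp5 (0.68) and Lcn2 (0.50) were higher and Sgk1 (-0.71) was the only one of the 10 that was lower, where 32.5% of all genes were called, 27.9% higher and 4.61% lower. What produced the trend was not tested. GC content depends on the transcript taken: the CCDS transcripts of Tsc22d3 and Mt1 had 57.0% and 58.1%, against 48.3% and 52.9% for their longest ones. The trend was removed with the longest ones alone, so the calls of these genes with it removed rest on that choice.

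**Figure D3:**
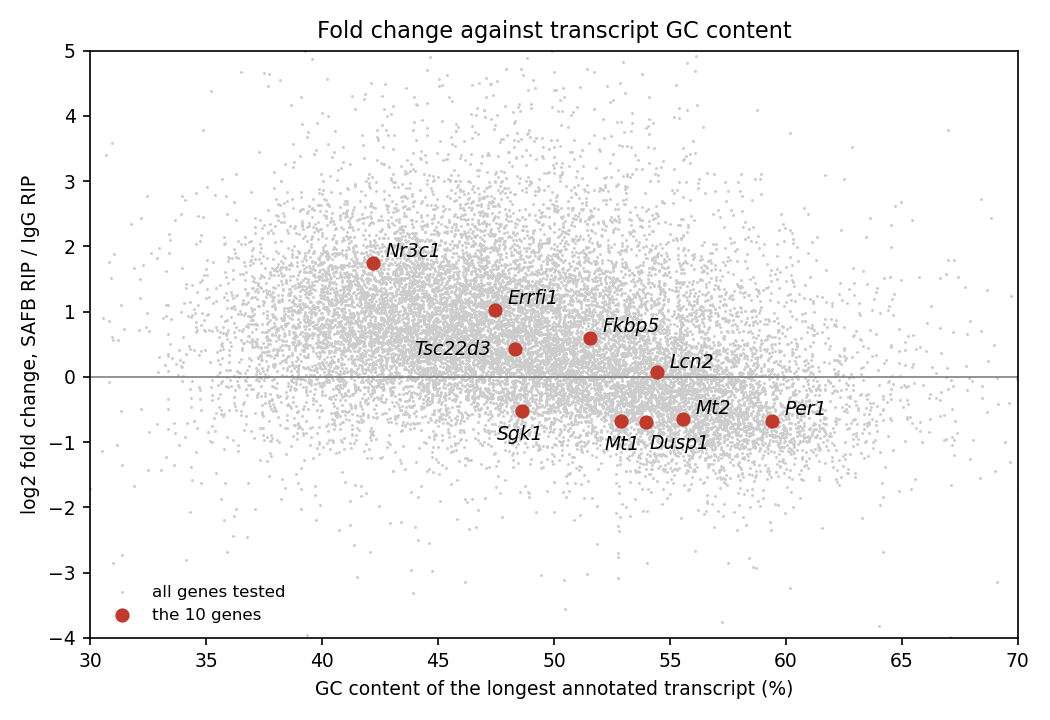
Log2 fold change against the GC content of the longest annotated transcript for genes tested (grey, 88 outside the axes) and the 10 genes (red). Nr3c1 at 42.2% GC is highest and Per1 at 59.4% lies among the lowest, while Sgk1, at 48.6% and -0.53, stands against a median of 0.73 among genes with 45 to 50% GC.

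The density of the purine pentamer GAAGA was set beside the fold changes. GAAGA, searched on the sense strand with overlaps counted, occurred 3.88 times per 1000 bases in the longest transcript of Sgk1, more densely than in 83.9% of genes tested, although Sgk1 was lower in the SAFB RIP. Tsc22d3 (3.13) and Fkbp5 (3.11) followed, Errfi1 had 2.30, Nr3c1 1.86, Dusp1 1.73, Per1 1.71, Lcn2 1.46 and Mt1 0.922 per 1000 bases, and Mt2 had none. Of all genes tested 9.54% had none, and the median was 2.15. Pearson's r of this density with log2 fold change was 0.29 over the 10 genes (Spearman's rho 0.47) and 0.27 over 16611 genes (rho 0.29), which again share libraries and base composition. The first place of Sgk1 depends on the transcript taken: in CCDS transcripts Tsc22d3 had 4.51 matches per 1000 bases and Sgk1 3.88.

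The 60 coding bases with the most matches are shown for the 3 genes with the densest transcripts, which lay on both sides of the comparison, with GAAGA in capitals. They cover coding positions 632 to 691 of Sgk1, 579 to 638 of Fkbp5 and 428 to 487 of Tsc22d3, counted from 1 at the start codon of a CCDS transcript in GENCODE M21:
Sgk1: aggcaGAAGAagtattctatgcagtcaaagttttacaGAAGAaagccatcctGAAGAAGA
Fkbp5: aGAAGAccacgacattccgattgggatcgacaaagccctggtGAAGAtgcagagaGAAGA
Tsc22d3: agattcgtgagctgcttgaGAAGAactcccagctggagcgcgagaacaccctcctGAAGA

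The Sgk1 window held 4 matches, the Fkbp5 window 3 and the Tsc22d3 window 2. The coding sequence of Sgk1 had 8 matches in 1572 bases, that of Fkbp5 9 in 1368 bases, that of Nr3c1 7 in 2376 bases and that of Dusp1 0 in 1101 bases. That of Tsc22d3 had 5 in 603 bases. It was the densest of the coding sequences, ahead of those of Fkbp5, Mt1 (1 in 183 bases) and Sgk1. Tsc22d3 and Fkbp5 were called higher in the SAFB RIP, Sgk1 lower, and Mt1 did not pass. A match is a description of the letters, not a binding site.

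Promoter windows from RefSeq (GRCm38.p6, 250 bases before to 50 after each annotated start) were found for 9 of the 10 genes. The glucocorticoid response palindrome, taken as AGAACA, any 3 bases and its reverse complement TGTTCT, was in 3 of 32851 windows (0.00913%), and 1 of these belonged to Sgk1. It began 189 bases before 1 of the 6 annotated starts of Sgk1, outside its annotated exons, and is shown with 25 bases on each side (chr10:21993676-21993740, plus strand), the palindrome in capitals:
Sgk1 promoter: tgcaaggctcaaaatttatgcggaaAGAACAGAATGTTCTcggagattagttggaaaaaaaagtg

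AGAACA, a single arm of the palindrome, was found on either strand in windows of 2 of the 9 genes, Sgk1 and Tsc22d3, and in 19.0% of all windows. The metal response cores TGCACNC and TGCGCNC, searched on both strands with overlaps counted, were found 4 times in the Mt2 window and 3 times in the Mt1 window. Windows of Per1, Sgk1 and Dusp1 held 1 each, and 25.7% of all windows held at least 1. For both motifs a gene was read by its window with the most matches, while the shares are of single windows. Sgk1 had 6 windows and Tsc22d3 had 3, so genes and shares are not on the same basis. These data measure recovered RNA and not binding at promoters.

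Genes that act with the receptor or with its targets were read from 9 lists. Of 15 genes of the receptor chaperone machinery, 9 were higher, 0 were lower and 6 did not pass in limma, with a median of 0.96. Of all genes tested, 29.8% were higher. At an unadjusted p under 0.05, 2 were lower. Hsp90ab1, an HSP90 gene, stood at 800 ± 71.4 TPM with IgG and 1556 ± 11.6 TPM with SAFB, a log2 fold change of 0.96 ± 0.12. Hspa8, which encodes the chaperone HSC70, was higher by 1.08 ± 0.10. Fkbp4, the cochaperone that FKBP5 competes with, was named after its value was seen and was higher by 0.69 ± 0.10. After median centring 7 of the 15 were higher and 3 lower, where 16.4% and 17.6% of all genes were.

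Of 16 receptor coregulators 8 were higher and 1 was lower, with a median of 0.65. These were 50.0% and 6.25% of the list, against 29.8% and 8.30% of all genes. After median centring 5 were higher and 2 lower, where 16.4% and 17.6% of all genes were. Ncor1, a corepressor gene, stood at 166 ± 25.9 TPM with IgG and 413 ± 44.9 TPM with SAFB (1.31 ± 0.16). Tgm2, a transglutaminase gene and the only one lower, stood at -0.68 ± 0.10, and at 0.020 with the GC trend removed. Of 12 genes for steroid supply and related steroid receptors only 7 could be tested. In limma 2 were higher, Akr1d1 (1.65 ± 0.31) and Nr3c2, the mineralocorticoid receptor gene (1.30 ± 0.36). The share of 28.6% lies near the 29.8% of all genes. At either an adjusted or an unadjusted p of 0.05 in limma, 0 of the list were lower, and the median was 0.80. H6pd, which supplies cofactor for glucocorticoid regeneration, stood at -0.067 ± 0.14 and Cyp3a13 at 0.60 ± 0.21, neither past the threshold.

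Further genes known to respond to dexamethasone were split. Of 29 tested (37 listed), 6 were higher, 9 lower and 14 did not pass, with a median of -0.24, the lowest of the 9 lists. Lower genes were 31.0% of the list, against 8.30% of all genes. Zbtb16, a transcription factor gene strongly induced by glucocorticoids, stood at 194 ± 1.82 TPM with IgG and 469 ± 12.9 TPM with SAFB (1.27 ± 0.09). Agt, the angiotensinogen gene, went the other way, from 314 ± 42.9 to 172 ± 6.88 TPM (-0.86 ± 0.13). After median centring 1 was higher and 14 were lower, where 16.4% and 17.6% of all genes were. With the GC trend removed 3 were higher and 3 lower, where 27.9% and 4.61% of all genes were. Pck1, Tdo2, Igfbp1 and Sult1e1, classical liver targets, were listed at 0 in every library.

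Relatives of the 10 genes gave 6 higher and 3 lower of 26 tested, with a median of 0.15. The shares of 23.1% and 11.5% lie near the 29.8% and 8.30% of all genes. Tsc22d1, a relative of Tsc22d3, was higher by 0.69 ± 0.11. The 3 that were lower were FKBP genes, Fkbp8 (-0.86 ± 0.09), Fkbp9 (-0.69 ± 0.09) and Fkbp1a (-0.63 ± 0.16). On the same side as Fkbp5, Fkbp3 (0.89 ± 0.18) and Fkbp15 (0.70 ± 0.13) were higher. After median centring the counts were 1 higher and 3 lower, against 16.4% and 17.6% of all genes. Mt3 and Mt4 were listed at 0.

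Among 17 zinc-handling genes 3 were higher and 4 lower, with a median of 0.072. That is 17.6% and 23.5% of the list, against 29.8% and 8.30% of all genes. After median centring 1 was higher and 5 were lower, where 16.4% and 17.6% of all genes were. Mtf1, the zinc-sensing factor that drives metallothionein genes, was higher at 0.83 ± 0.21, as were Slc30a9 (1.24 ± 0.23) and Slc39a10 (0.97 ± 0.22). Slc39a4 (-1.33 ± 0.11), Slc39a1 (-1.21 ± 0.16), Slc39a3 (-1.14 ± 0.28) and Slc30a5 (-0.87 ± 0.17), which encode zinc transporters, were lower. Slc39a14, the most abundant, stood at 0.28 ± 0.09 and did not pass.

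Of 17 circadian clock genes 4 were higher and 1 lower, or 23.5% and 5.88%, near the 29.8% and 8.30% of all genes. Their median of 0.46 was that of all genes tested. Among those higher were Clock (1.06 ± 0.14), Nfil3 (1.13 ± 0.23) and Nr1d2 (1.08 ± 0.26). Csnk1d, a kinase gene whose product phosphorylates PER proteins, was lower like Per1, at -0.52 ± 0.09, while Csnk1e stood at 0.46 ± 0.19 and did not pass. After median centring 1 was higher and 1 lower, where 16.4% and 17.6% of all genes were.

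Of 23 genes of the EGF receptor and MAP kinase pathway, on which MIG6 and DUSP1 act, 4 were higher and 2 lower, with a median of 0.12. The higher genes were 17.4% of the list and the lower ones 8.70%, against 29.8% and 8.30% of all genes. Sos2 (2.09 ± 0.33) and Sos1 (1.72 ± 0.32), exchange factors for RAS, and Spred1 (1.12 ± 0.21) and Mapk8 (1.05 ± 0.17) were higher. Erbb2 (-1.16 ± 0.16) and Araf (-0.48 ± 0.10) were lower. After median centring 2 were higher and 8 lower, where 16.4% and 17.6% of all genes were. Of 13 partners of SGK1 4 were higher and 0 lower in limma, with 1 lower at an unadjusted p under 0.05 and a median of 0.21. The higher share, 30.8%, lies near the 29.8% of all genes. Scnn1a (1.89 ± 0.24), an epithelial sodium channel subunit gene, Rictor (0.80 ± 0.15), Nedd4l (0.60 ± 0.16) and Mapkap1 (0.54 ± 0.15) were higher. Nedd4 stood at 0.53 ± 0.16 and Ndrg1 at -0.28 ± 0.14, and neither passed. On the centred scale 1 of the list was higher and 4 were lower, against 16.4% and 17.6% of all genes. With the GC trend removed 1 was higher and 0 were lower in limma, where 27.9% and 4.61% of all genes were.

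**Figure D4:**
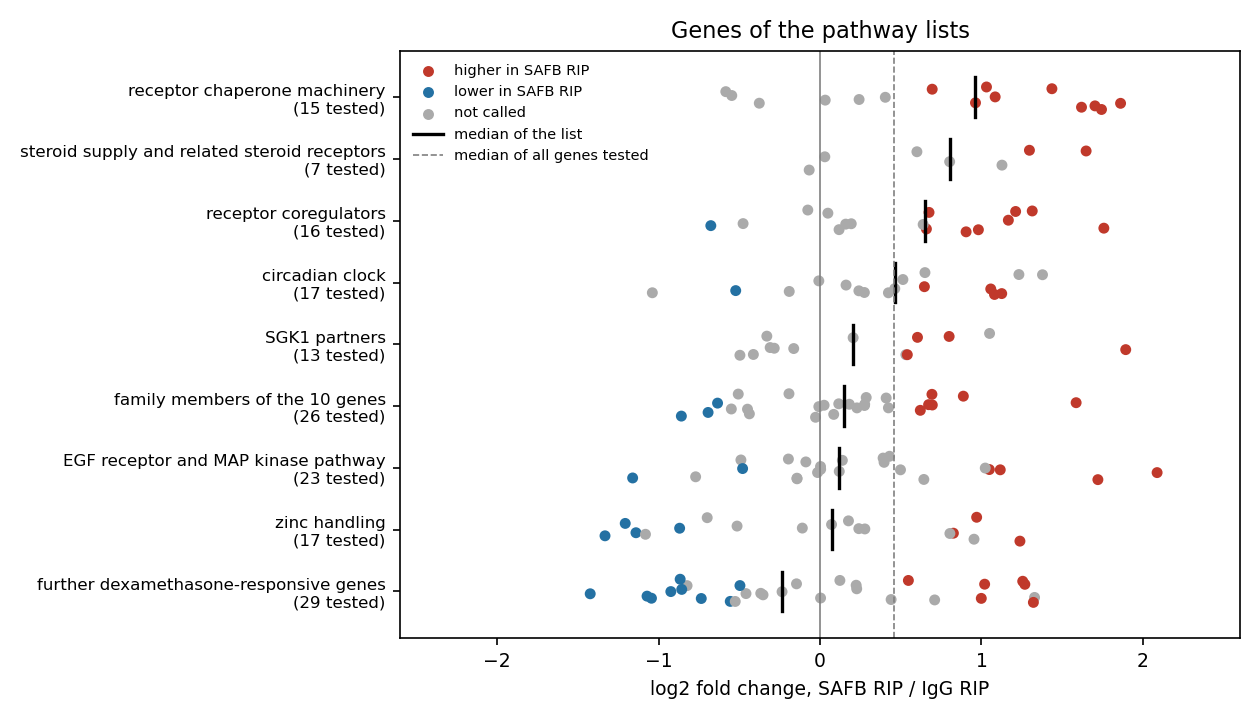
Log2 fold change of each tested gene in the 9 lists, coloured by its call in limma, with the median of each list (black line) and of all genes tested (dashed, 0.46). The receptor chaperone list has the highest median, 0.96, and the further dexamethasone-responsive genes the lowest, -0.24.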

How the data were processed

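RIP-seq libraries from AML12 nuclei (2 with control IgG, 2 with anti-SAFB) were analysed from the table of TPM values that the authors deposited. Per the submitters' processing notes, StringTie, HTSeq, HISAT2 and DESeq2 were used with mm10. Their roles, the annotation and strand handling are not given in the sources consulted, so values of overlapping genes and close copies are uncertain. Entries sharing an identifier (14 entries, 6 identifiers) were summed, leaving 52189 genes, of which 52042 were found in GENCODE M21 on the same assembly. That release gave coordinates and transcripts.

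A gene was tested if 2 or more of the 4 libraries reached 1 TPM. limma 3.58.1 in R 4.3.3 was fitted on log2(TPM + 1) with a variance trend, without a replicate block, and tested on simulated data. Fold changes of low genes are understated on that scale. The fit had 2 residual degrees of freedom and a prior of 2.50. Fold change errors are SE and TPM errors SD over 2 libraries. Exact permutation of 2 against 2 libraries cannot go below p = 0.333 and was not used. The 10 genes, the lists and the tests were chosen with earlier results of these data known. Named genes are the 10, the 2 most abundant tested genes of each list and the most abundant of each marker list, the 3 genes nearest to Nr3c1, and Safb. Where a list had 5 or fewer genes called in a direction, those genes were named after their values were seen, as were Fkbp4, Fkbp3 and Fkbp15. Hnf4a and the other markers that the text names were also named then. The number of 2 per list was set after values had been seen. In all, 15 alternatives were tried, covering pseudocount, filter, scaling, GC and length trends, variance trend, block and single libraries left out. Of the genes this rule takes, 2 are not reported here. No set test was run.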

Additional observations from a re-analysis of the deposited data

How the results depend on the processing

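Across 15 alternatives Nr3c1 and Errfi1 kept their call and direction. The 4 genes called higher and 3 called lower of the 10 became 2 and 5 after median centring (2736 genes higher and 2935 lower among all), 2 and 4 after quantile normalization (2758 and 2986), and 2 and 4 with protein-coding genes alone (2600 and 2322). With a transcript GC trend removed they were 4 and 1 (765 genes lower among all), and without a variance trend 2 and 0 (limma; 3 lower at an unadjusted p under 0.05). Leaving out 1 library gave 2 to 4 higher and 0 to 5 lower of the 10, and 2034 to 7781 higher and 571 to 2631 lower of all genes. In either fit without a SAFB library 0 of the 10 were lower in limma, and 4 were at an unadjusted p under 0.05. Such fits assume that the lone library varies like the other group.

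Signs turned for Tsc22d3 (-0.030 after median centring), Per1 (0.13) and Tgm2 (0.020) with the GC trend removed, and Lcn2 (-0.38 after median centring, -0.23 after quantile normalization, -0.22 with protein-coding genes alone). They also turned for Slc39a14 under those 3 scalings (-0.18, -0.023 and -0.022), for H6pd (0.63 with the GC trend removed, and -0.21 to 0.080 with 1 library left out) and for Cd14 (0.020 with a length trend removed, 0.064 with the GC trend removed, and -0.28 to 0.0097 with 1 library left out). The cause was not tested.

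The labels number the libraries without saying that equal numbers share a lysate, and same-numbered libraries did not deviate together across genes (r = -0.025). With the replicate block 3 of the 10 were higher and 4 lower, with 4797 and 1264 among all genes: Tsc22d3 no longer passed and Mt1 did. Of 690 values of 46 other named genes under the alternatives, 555 kept direction and side of the threshold, and of 270 list counts 178 stayed within 1.5 times. Depth is unknown, so no limit from counting can be given.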
